A study of Mus musculus with 10 samples.

Results

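The 10 genes described here encode the nuclear receptors and cofactors that set the capacity of heart muscle to burn fat: the peroxisome proliferator-activated receptors (Ppara, Ppard and Pparg), the estrogen-related receptors (Esrra, Esrrb and Esrrg), the PGC-1 coactivators (Ppargc1a and Ppargc1b), the retinoid X receptor Rxra and the corepressor Nrip1. They were taken by symbol from a table of 23303 gene entries, in which each has an entry of its own. All 10 passed the filter of a mean of at least 1 FPKM (fragments per kilobase of transcript, scaled to the mapped fragments of the library), which left 11651 genes for testing. The table holds left ventricles of male 129X1/SvJ mice, 5 labelled CKD (chronic kidney disease) and 5 labelled Sham under surgery, with 1 library per mouse. The kind of operation, the age of the mice and the time since surgery are not given in the sources used here. The title of the series names uremic cardiomyopathy, a disease of the heart in patients whose kidneys fail.

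PPARs are receptors for fatty acids and their derivatives. They bind DNA as pairs with a retinoid X receptor and switch on genes of fatty acid uptake, mitochondrial import and beta-oxidation. ERRs are orphan receptors that bind an extended core motif. They drive genes of energy metabolism, among them those of the citric acid cycle and the respiratory chain. The PGC-1 proteins bind both kinds of receptor and raise their activity, whereas Nrip1 (RIP140) binds the same receptors and lowers it.

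None of the 10 regulator genes passed the test between CKD and Sham. Many genes known as PPAR targets were lower in CKD. By limma, with p-values adjusted over the 11651 genes by the Benjamini-Hochberg method, 0 of 10 had an adjusted p under 0.05, against a background of 5.29% of all tested genes. That background splits into 3.17% that rose and 2.12% that fell. Esrra and Rxra, 2 of the 10, had an unadjusted p under 0.05, against 19.5% of all tested genes. For a list of 10 genes both counts lie close to the background, so they do not set the regulators apart. The median size of the differences, regardless of sign, was 0.114 for the 10 and 0.093 for all tested genes. The 10 log2 differences ran from -0.22 for Esrra to 0.17 for Pparg, with a median of -0.08, where the median of all tested genes was -0.0035. Of the PPAR target list, 17 of 33 tested genes fell and 0 rose.

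The libraries CKD 1 and Sham 1 stand apart from the rest. Their 10 most abundant genes took 14.8% and 15.3% of the summed FPKM, against 17.6% to 18.2% in the other 8 libraries. Among low values (at most 0.2 FPKM), 27.0% to 31.5% of genes shared a single ratio, within 0.3%, between any pair of the other 8 libraries, as whole reads of the same genes would give. Between CKD 1 or Sham 1 and those 8, the share was 1.16% to 1.76%, and between CKD 1 and Sham 1 it was 5.67%. The cause of this gap was not tested. Read as depth, the shared ratios put the other 8 libraries at 0.906 to 1.15 times the depth of Sham 2; no depth relative to these was recovered for CKD 1 and Sham 1. Of 15 cardiomyocyte markers, Myh6 and Atp2a2 are listed at 0 in all 10 libraries and 13 were tested.

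Over all 10 libraries, the mean level of Esrra was at percentile 89.7 of tested genes. In Sham mice Esrra was the most abundant of the 10, with a mean of 69.2 FPKM. It was followed by Ppargc1a (20.9), Rxra (19.5), Ppara (17.6), Esrrg (14.3), Esrrb (11.8), Ppard (10.1), Ppargc1b (8.88), Pparg (7.64) and Nrip1 (4.07). FPKM is scaled to length, so levels of different genes can be set side by side as far as each value holds all reads of its gene. This could not be checked: the treatment of shared reads is not given, and Myh6 and Atp2a2 are listed at 0 in all 10 libraries. The order here and the family shares below describe the listed values. The ranges over Sham mice did not overlap between Esrra and Ppargc1a, between Esrrb and Ppard, or between Pparg and Nrip1. All other neighbours in this order overlapped. In CKD mice the order was the same except that Pparg (8.63) stood above Ppargc1b (7.86).

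**Figure D1:**
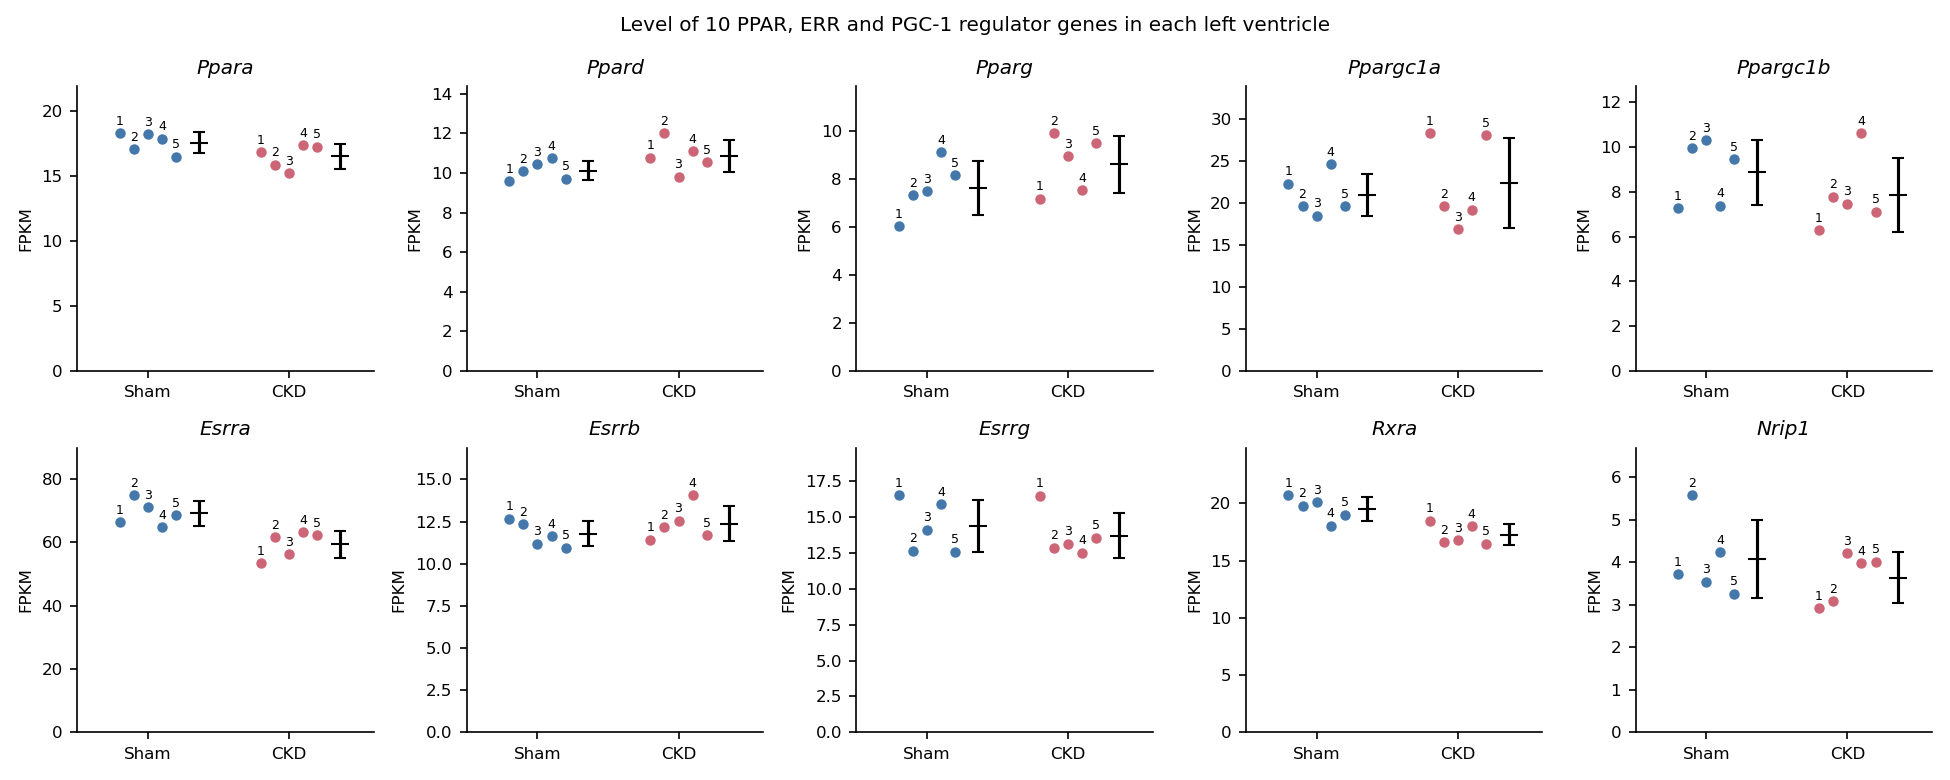
FPKM of the 10 regulator genes in each left ventricle (points, numbered by mouse; 5 mice a group), and mean ± SD for each group; every vertical axis starts at 0. Only for Esrra do the groups not overlap, at 53.5 to 63.2 FPKM in CKD and 64.8 to 75.0 in Sham.

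Esrra encodes ERR alpha, the main ERR of adult heart and a receptor for PGC-1 coactivation. It lies on chromosome 19 from 6910977 to 6922048 (RefSeq, GRCm38). It was at 66.5, 75.0, 71.0, 64.8 and 68.6 FPKM in Sham mice 1 to 5. The CKD mice 1 to 5 stood at 53.5, 61.6, 56.3, 63.2 and 62.2 FPKM. Every CKD value lay below every Sham value, a lack of overlap seen for 7.28% of tested genes. The means were 69.2 ± 4.00 and 59.4 ± 4.24 FPKM (SD, n = 5 each), a log2 difference of -0.22 (SE 0.06, 95% confidence interval -0.35 to -0.09) and a limma adjusted p of 0.0585. The adjusted p was 0.0392 with libraries scaled to the same total, 0.0496 after quantile normalization and 0.0399 with library weights, so the call depends on the scaling and the variance model. Without both CKD 1 and Sham 1 the difference was -0.20 (adjusted p = 0.0826). In bulk tissue, fewer cells of a type and less RNA per cell cannot be told apart.

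Esrrg encodes ERR gamma, which promotes the oxidative metabolism of the maturing heart (chromosome 1, 187608510 to 188214885). Its values were 16.5, 12.6, 14.1, 15.9 and 12.6 FPKM in Sham 1 to 5. Those of CKD 1 to 5 were 16.5, 12.9, 13.1, 12.5 and 13.5 FPKM in CKD 1 to 5. The groups overlapped, and CKD 1 and Sham 1 had the highest values of their groups. The log2 difference was -0.06 (95% confidence interval -0.27 to 0.15, adjusted p = 0.786). Esrrb, the third ERR, is best known from stem cells and placenta (chromosome 12, 86361117 to 86521628). It was at 12.7, 12.4, 11.2, 11.6 and 11.0 FPKM in Sham 1 to 5. The values of CKD 1 to 5 were 11.4, 12.2, 12.6, 14.1 and 11.7 FPKM. The groups overlapped, with a log2 difference of 0.07 (95% confidence interval -0.08 to 0.22, adjusted p = 0.645).

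Rxra, the retinoid X receptor alpha, is the DNA-binding partner of the PPARs (chromosome 2, 27676445 to 27763319). It was at 20.7, 19.8, 20.1, 18.0 and 19.0 FPKM in Sham 1 to 5. Its values in CKD 1 to 5 were 18.5, 16.6, 16.8, 18.0 and 16.5 FPKM. All CKD mice except CKD 1 lay below the lowest Sham mouse, Sham 4, and CKD 4 did so only narrowly. The means were 19.5 ± 1.04 and 17.3 ± 0.917 FPKM (SD, n = 5 each), with a log2 difference of -0.17 (SE 0.06, 95% confidence interval -0.30 to -0.05) and a limma adjusted p of 0.108. The other retinoid X receptors, Rxrb and Rxrg, were in the list of other nuclear receptors. Rxrb was at 22.4 ± 1.15 FPKM in Sham, and Rxrg, at 56.6 ± 6.94 FPKM, had the highest level of the 3. Neither passed.

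ERRs and PPARs can act on the stretch upstream of a start site. This stretch is shown for the members with the smallest p, Esrra and Rxra. It is also shown for Acadm, the gene of the PPAR target list with a match. Each is the 250 bases before a RefSeq transcription start in GRCm38.p6, 5′ to 3′ on the gene's strand, with the letters AAGGTCA (or TGACCTT, the same motif on the other strand) in capitals. Esrra is at chr19:6921809-6922058 (minus strand), Rxra at chr2:27709042-27709291 (plus strand) and Acadm at chr3:153944644-153944893 (minus strand). The windows of Esrra and Rxra precede starts that lie inside the span of the gene given above, so most of the Esrra window and all of the Rxra window fall within that span.
Esrra: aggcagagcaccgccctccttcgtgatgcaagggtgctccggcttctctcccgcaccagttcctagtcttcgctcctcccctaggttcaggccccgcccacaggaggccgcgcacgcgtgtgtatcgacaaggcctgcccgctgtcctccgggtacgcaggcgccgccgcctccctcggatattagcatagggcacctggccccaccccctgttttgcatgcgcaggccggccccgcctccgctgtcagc
Rxra: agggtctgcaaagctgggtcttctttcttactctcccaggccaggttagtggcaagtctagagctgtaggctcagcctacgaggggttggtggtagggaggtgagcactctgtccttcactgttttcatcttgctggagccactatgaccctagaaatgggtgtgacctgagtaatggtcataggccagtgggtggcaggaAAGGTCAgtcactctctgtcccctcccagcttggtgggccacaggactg
Acadm: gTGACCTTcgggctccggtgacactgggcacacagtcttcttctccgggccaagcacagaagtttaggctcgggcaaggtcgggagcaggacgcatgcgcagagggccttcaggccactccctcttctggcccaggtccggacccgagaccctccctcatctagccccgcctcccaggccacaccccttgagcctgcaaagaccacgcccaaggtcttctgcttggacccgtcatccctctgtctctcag
The RefSeq table gave 17 such windows for 9 of the 10 regulator genes (not Ppargc1b) and 32851 windows in all. AAGGTCA, the extended core motif bound by ERRs, occurred in 1 of the 17 windows (5.88%, the Rxra window shown, 49 bases before the start) and in 4.08% of all windows. The other Rxra window, chr2:27676951-27677200, held 0 matches. The longer ERR motif TCAAGGTCA, which contains AAGGTCA, occurred in 0 of the 17 and in 0.387% of all windows. The direct repeat AGGTCANAGGTCA, bound by PPAR with a retinoid X receptor, occurred in 0 of the 17 and in 11 of all windows. The cyclic AMP response element TGACGTCA occurred in 0 of the 17 and in 1.55% of all windows. For the PPAR target list, AAGGTCA was found in 1 of 33 windows (3.03%), that of Acadm, 249 bases before the start. For the list of ERR and PGC-1 targets it was found in 3 of 38 windows (7.89%), those of Got1, Perm1 and Timm8b, and TGACGTCA in 5 of 38 (13.2%), those of Cycs, Mdh2 and Ogdh. Both strands were searched. A match describes the letters and is no evidence of binding.

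Ppara encodes PPAR alpha, the main regulator of fatty acid oxidation in heart muscle (chromosome 15, 85734910 to 85806851). It was at 18.3, 17.1, 18.2, 17.9 and 16.5 FPKM in Sham 1 to 5. In CKD 1 to 5 it was at 16.8, 15.9, 15.2, 17.4 and 17.3 FPKM. The groups overlapped, with CKD 2 and CKD 3 below all Sham mice. The log2 difference was -0.09 (SE 0.06, 95% confidence interval -0.21 to 0.03, adjusted p = 0.432). Ppara was among the steadiest genes within groups: its within-group SD of 0.07 (log2) was at percentile 8.90 of tested genes.

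Ppard encodes PPAR delta, the broadly expressed form that also drives fat oxidation (chromosome 17, 28232754 to 28301469). Its values were 9.60, 10.1, 10.5, 10.7 and 9.72 FPKM in Sham 1 to 5. They were 10.8, 12.0, 9.80, 11.1 and 10.6 FPKM in CKD 1 to 5. CKD 1, CKD 2 and CKD 4 lay above all Sham mice, and the log2 difference was 0.09 (95% confidence interval -0.04 to 0.23, adjusted p = 0.460). Pparg encodes PPAR gamma, best known from fat cells and macrophages (chromosome 6, 115360879 to 115490404). It was at 6.05, 7.35, 7.51, 9.13 and 8.17 FPKM in Sham 1 to 5. In CKD 1 to 5 it was at 7.19, 9.92, 8.98, 7.55 and 9.51 FPKM. The groups overlapped, with a log2 difference of 0.17 (95% confidence interval -0.08 to 0.42, adjusted p = 0.465).

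Fat cells and macrophages express Pparg, so their markers were read beside it. Of 12 adipocyte markers 8 were under the filter. The 4 tested gave no call, against 5.29% of all tested genes. The summed level of the 12 was 91.9 to 116.1 FPKM in Sham and 96.5 to 117.8 in CKD. Most of that sum was Plin4, Cidea and Lipe, with means of 53.5, 24.6 and 20.1 FPKM in Sham. The sum therefore says little about the markers under the filter. Adipoq, which encodes the fat cell hormone adiponectin, ran from 0.368 to 0.730 FPKM in Sham and from 0 to 0.643 in CKD. Of 11 tested macrophage markers 6 rose (54.5%, against 3.17% of all tested genes) and 0 fell. The summed level of the 13 listed was 284 to 342 FPKM in Sham and 401 to 583 in CKD. Their part in the level of Pparg was not tested.

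Ppargc1a encodes PGC-1 alpha, the inducible coactivator of mitochondrial genes (chromosome 5, 51454249 to 52115853). It was at 22.3, 19.6, 18.5, 24.7 and 19.6 FPKM in Sham 1 to 5. The CKD mice had 28.3, 19.6, 16.9, 19.2 and 28.1 FPKM, in the same order. CKD 1 and CKD 5 lay above all Sham mice, whereas CKD 3 lay below all of them. The means were 20.9 ± 2.51 and 22.4 ± 5.37 FPKM (SD, n = 5 each), and the log2 difference was 0.07 (SE 0.14, 95% confidence interval -0.24 to 0.38, adjusted p = 0.843). The sign turned without CKD 1 (log2 -0.02), without CKD 5 (-0.01) and with library weights (-0.0081). Its within-group SD of 0.26 (log2) was the largest of the 10, at percentile 89.1 of tested genes.

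Ppargc1b encodes PGC-1 beta, the related coactivator of basal mitochondrial genes (chromosome 18, 61291445 to 61400756). It was at 7.28, 9.96, 10.3, 7.38 and 9.46 FPKM in Sham 1 to 5. Values of 6.29, 7.78, 7.48, 10.6 and 7.12 FPKM were measured in CKD 1 to 5. The lowest value was that of CKD 1 and the highest that of CKD 4, so the CKD mice spanned the Sham range. The log2 difference was -0.17 (SE 0.14, 95% confidence interval -0.47 to 0.13, adjusted p = 0.544). Nrip1, the corepressor, lies on chromosome 16 from 76287403 to 76373827. It was at 3.72, 5.58, 3.54, 4.24 and 3.26 FPKM in Sham 1 to 5. The 5 CKD mice had 2.92, 3.09, 4.21, 3.97 and 4.01 FPKM, in the same order. The groups overlapped, with a log2 difference of -0.13 (95% confidence interval -0.44 to 0.17, adjusted p = 0.666), and it was -0.03 without Sham 2.

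**Figure D2:**
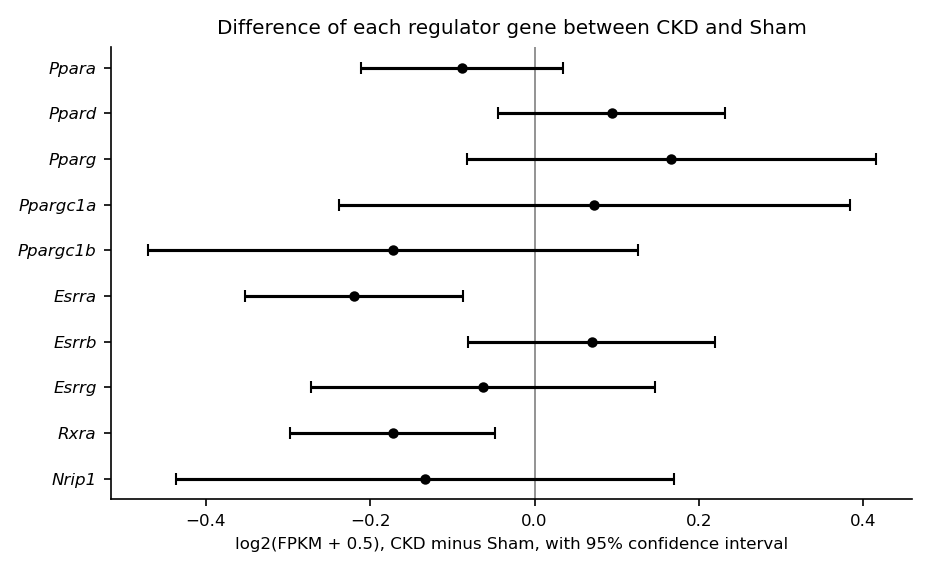
Difference between CKD and Sham for each regulator gene on the log2(FPKM + 0.5) scale (points), with the 95% confidence interval from limma (bars). The intervals of Esrra (-0.35 to -0.09) and Rxra (-0.30 to -0.05) lie below 0 before adjustment, and the other 8 include 0.

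The make-up of each family was then compared, since each share sets members of a family against each other within a library. With 11 such measures tested by exact two-sided permutation of the 10 mice, 2 passed after Benjamini-Hochberg adjustment. Esrrb made up 13.3%, 12.4%, 11.6%, 12.6% and 11.9% of the summed ERR FPKM in Sham 1 to 5. The shares in CKD 1 to 5 were 14.0%, 14.0%, 15.3%, 15.7% and 13.4%. Its share thus rose in CKD, from 12.3% ± 0.643 to 14.5% ± 0.969 (SD, n = 5 each), with no overlap between the groups (difference 2.14 percentage points, SE 0.520, exact permutation p = 0.00794, adjusted p = 0.0437). This p is the smallest that 5 against 5 mice can give. Esrrb did not pass on its own, with means of 11.8 FPKM in Sham and 12.4 in CKD. Esrra, the largest part of the sum, had means of 69.2 and 59.4 FPKM. The share of Esrrb thus does not describe a change of Esrrb alone. The summed ERR level was 95.3 ± 3.23 FPKM in Sham and 85.5 ± 3.62 in CKD, and the share of Esrra in it was 72.6% ± 2.56 and 69.4% ± 2.30 (exact permutation p = 0.0952, adjusted p = 0.244). The share of Esrrg, 15.1% ± 2.09 and 16.1% ± 2.44, did not pass.

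The second measure was the log2 ratio of Ppara to Ppard. It was 0.89, 0.73, 0.77, 0.71 and 0.73 in Sham 1 to 5. CKD 1 to 5 had ratios of 0.62, 0.39, 0.61, 0.62 and 0.68. Every CKD mouse lay below every Sham mouse, and the ratio fell from 0.77 ± 0.07 to 0.59 ± 0.11 (SD, n = 5 each; difference -0.18, SE 0.06, exact permutation p = 0.00794, adjusted p = 0.0437). Neither gene passed on its own. Without both CKD 1 and Sham 1, 4 mice against 4 gave a difference of -0.16 for this ratio and of 2.48 percentage points for the share of Esrrb. The adjusted p was 0.157 for both, with a smallest possible exact permutation p of 0.0286. Ppara made up 49.8% ± 2.57 of the summed PPAR FPKM in Sham and 45.9% ± 2.65 in CKD (exact permutation p = 0.0476, adjusted p = 0.175). The ratio of coactivator to corepressor, log2 Ppargc1a minus Nrip1, was 2.24 ± 0.30 in Sham and 2.45 ± 0.46 in CKD (exact permutation p = 0.444, adjusted p = 0.498).

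**Figure D3:**
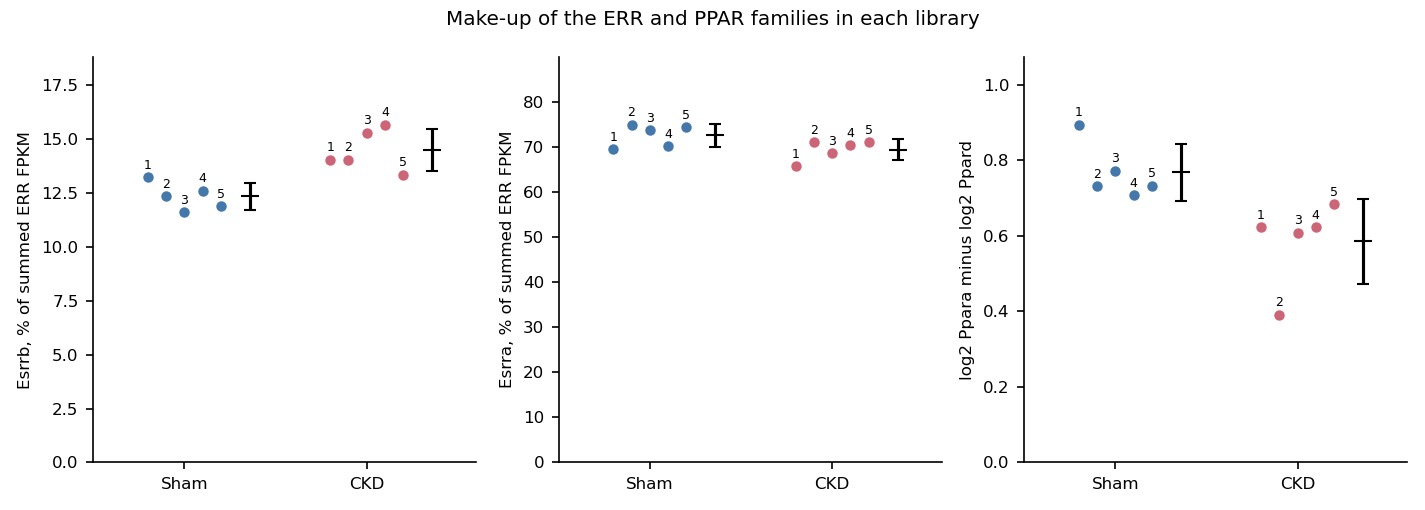
Share of Esrrb and of Esrra in the summed FPKM of the 3 ERR genes, in percent, and the difference log2(Ppara + 0.5) minus log2(Ppard + 0.5), in each mouse (points, numbered), with the group mean and SD; all vertical axes start at 0. The share of Esrrb is 11.6% to 13.3% in Sham and 13.4% to 15.7% in CKD, with no overlap, and the Ppara to Ppard ratio does not overlap either.

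Among the 45 pairs of regulator genes, 5 had an unadjusted permutation p under 0.05 for Pearson's r over the 10 mice, and 0 passed after adjustment. The closest pair was Pparg and Rxra, which ran in opposite directions (r = -0.87, permutation p = 0.00128, adjusted p = 0.0576; Spearman's rho -0.83, p = 0.00467, adjusted p = 0.210). Without Sham 1 and CKD 2, the mice farthest from the median of Pparg, r was -0.77. Within the groups it was -0.95 in Sham and -0.98 in CKD, over 5 mice each. In each group the mouse with the least Pparg had the most Rxra, and these were Sham 1 and CKD 1; without both r was -0.86.

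Ppargc1a and Ppargc1b also ran in opposite directions (r = -0.67, permutation p = 0.0397, adjusted p = 0.403; Spearman's rho -0.76, p = 0.0156, adjusted p = 0.335). The 4 mice with the most Ppargc1a (CKD 1, CKD 5, Sham 4 and Sham 1) had at most 7.38 FPKM of Ppargc1b, and the other 6 had at least 7.48. Within the groups r was -0.93 in Sham and -0.58 in CKD. Without CKD 1 and CKD 5, the mice farthest from the median of Ppargc1a, r was -0.39, so the relation rests in part on those mice, and without CKD 1 and Sham 1 it was -0.51. Ppargc1b and Esrra ran together (r = 0.72, permutation p = 0.0203, adjusted p = 0.403; rho 0.56, p = 0.0975, adjusted p = 0.732), r was 0.83 without Sham 3 and CKD 4, 0.85 in Sham, 0.70 in CKD, and 0.66 without CKD 1 and Sham 1. Esrra and Rxra had r = 0.60 over all mice (permutation p = 0.0652, adjusted p = 0.419; rho 0.68, p = 0.0355, adjusted p = 0.400) but -0.07 in deviations from the group means, 0.80 without Sham 2 and CKD 1, and 0.89 without CKD 1 and Sham 1. The other pairs with an unadjusted p under 0.05 were Ppara with Rxra and Ppargc1b with Esrrg, each with an adjusted p of 0.403. Ppara and Rxra had r = 0.65 (permutation p = 0.0435; rho 0.54, p = 0.114, adjusted p = 0.732), 0.36 without CKD 2 and CKD 3, 0.39 in deviations from the group means and 0.55 without CKD 1 and Sham 1. Ppargc1b and Esrrg had r = -0.65 (permutation p = 0.0448; rho -0.72, p = 0.0223, adjusted p = 0.335), -0.72 without Sham 3 and CKD 4, -0.80 in deviations from the group means and -0.42 without CKD 1 and Sham 1.

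**Figure D4:**
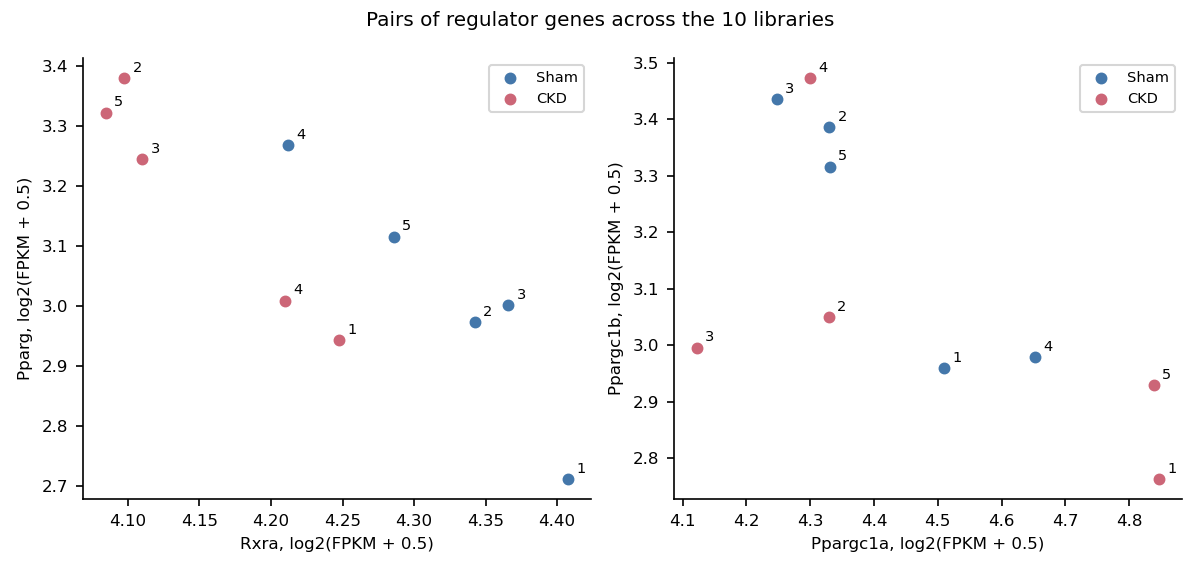
Log2(FPKM + 0.5) of Pparg against Rxra and of Ppargc1b against Ppargc1a in the 10 libraries (points, numbered by mouse; blue Sham, red CKD); the axes do not start at 0. Pparg is lower where Rxra is higher (r = -0.87), and the mice with the most Ppargc1a, CKD 1 and CKD 5, are among those with the least Ppargc1b.

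As a description, the genes most like each member over the 10 libraries were ranked by Pearson's r of log2 values, with no test. The ranking was among the 11651 tested genes, leaving out clone and model names, small RNA names and joined entries. For Esrra they were Etfb (r = 0.95), the beta subunit of the electron transfer flavoprotein that takes electrons from fatty acid oxidation, Acp6 (0.94) and Hdlbp (0.94). All 3 fell in CKD (limma adjusted p = 0.0464, 0.0462 and 0.0191), and r within groups was 0.86, 0.83 and 0.83. Each r over the 10 libraries holds the difference between the groups, and Esrra was lower in every CKD mouse. Genes picked by this r tend to share the direction of their member, so these falls are no separate result. For Rxra they were Mtl5, Trub1 and Paqr9 (r = 0.96 each), with 0.90, 0.90 and 0.91 within groups, and of these Mtl5 fell in CKD (adjusted p = 0.0232). For Ppargc1a they were Msc (0.95), a basic helix-loop-helix repressor, Mob1a (0.91) and Steap4 (0.88), a metalloreductase, with 0.96, 0.92 and 0.89 within groups, and none of them passed. For Ppara the genes were Mlec (r = 0.94, 0.91 within groups), Bbs10 and Ppp6r3, and for Ppard Fam20a (0.92, 0.90 within groups), Gnb3 and Tmem214. For Pparg they were Btf3 (0.95, 0.95 within groups), Gpkow and Ccdc136, and for Ppargc1b Crybb3 (0.94, 0.93 within groups), Mvb12a and Nfix. For Esrrb they were Rnf126 (0.94, 0.95 within groups), Sertad4 and Ftl1, and for Esrrg Ubxn7 (0.96, 0.96 within groups), Zfp207 and Rnf13. For Nrip1 they were Akap13 (0.94, 0.95 within groups), Mrpl22 and Ankrd12. The libraries share their scaling, and CKD 1 and Sham 1 enter every r. With so many genes ranked over 10 libraries, the highest r lay between 0.92 and 0.96 for every member.

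The known targets of these regulators were read next. In the PPAR target list, 17 of 33 tested genes fell and 0 rose (51.5% lower, against 2.12% of all tested genes), with a median log2 difference of -0.30 against -0.0035 over all genes. The groups did not overlap for 16 of the 33, against 7.28% of all genes. Ech1, an auxiliary enzyme of beta-oxidation, was at 1426, 1418, 1542, 1347 and 1447 FPKM in Sham 1 to 5. CKD 1 to 5 had 967, 899, 1005, 988 and 1013 FPKM, all below the Sham range (log2 -0.56, SE 0.05, limma adjusted p = 0.000267). Acadm, the medium-chain acyl-CoA dehydrogenase, was at 1002 ± 20.7 FPKM in Sham and fell to 787 ± 32.6 in CKD (log2 -0.35, adjusted p = 0.000876). Hadha, the alpha subunit of the trifunctional protein of beta-oxidation, fell from 588 ± 24.7 to 452 ± 18.7 FPKM (log2 -0.38, adjusted p = 0.000962).

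Acot1, a cytosolic acyl-CoA thioesterase, was at 6.14, 5.88, 6.14, 5.80 and 5.79 FPKM in Sham 1 to 5. In CKD 1 to 5 it was at 4.57, 2.88, 2.65, 2.91 and 2.16 FPKM. It fell in CKD (log2 -0.90, SE 0.14, adjusted p = 0.00376), and CKD 1 lay nearest to the Sham mice. Ucp3, a mitochondrial uncoupling protein, fell from 22.3 ± 3.62 to 13.6 ± 4.27 FPKM (log2 -0.73, adjusted p = 0.0363), but CKD 1, at 20.5 FPKM, lay inside the Sham range. Of the 10 fits that each omit a library, 7 lost this call (adjusted p up to 0.0883), as did testing every gene regardless of its mean (0.0591).

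Pdk4, the kinase that turns off pyruvate dehydrogenase and a standard PPAR target, did not pass (log2 -0.51, SE 0.35, adjusted p = 0.463). It was at 107, 249, 321, 288 and 178 FPKM in Sham 1 to 5. CKD 1 to 5 stood at 308, 187, 130, 88.8 and 112 FPKM. Here CKD 1 had the highest value of the CKD mice and Sham 1 the lowest of the Sham mice, and the ranges of the groups overlapped widely. Without both libraries the difference was -1.02 (limma adjusted p = 0.0399). No other alternative called Pdk4. Angptl4, an inhibitor of lipoprotein lipase, had the largest difference of the list (log2 -1.20, SE 0.38) but an adjusted p of 0.0905. It ran from 3.07 to 6.50 FPKM in Sham, stood at 4.57 in CKD 1, and CKD 2 to 5 had 0.566 to 2.11 FPKM. Without both CKD 1 and Sham 1 its difference was -1.63 (adjusted p = 0.0219), and without CKD 1 alone -1.53 (0.0153).

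Over the whole PPAR target list, the mean log2 deviation from the Sham mean was -0.14 in CKD 1 and between -0.38 and -0.35 in CKD 2 to 5, against -0.02 to 0.04 in Sham mice. CKD 1 was also the mouse with the most Ppargc1a and the least Esrra. Without both CKD 1 and Sham 1, 20 members were lower and 0 higher. Cpt1b, the muscle form of the enzyme that admits fatty acids to mitochondria, occurs only in an entry joined with Chkb and BC090627 and has no value of its own. That entry was at 378 ± 29.1 FPKM in Sham and 354 ± 23.9 in CKD and did not pass. Fgf21 was under the filter.

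The list of ERR and PGC-1 targets, mostly of the citric acid cycle and the respiratory chain, differed less. No gene was put in both target lists, and whether a listed gene answers to PPAR, ERR or both was not tested. The lists thus compare sets of genes and not the action of the receptors. Of 36 tested genes 1 fell and 0 rose (2.78% lower, against 2.12% of all tested genes), and the median log2 difference was -0.06. Of the 36 differences 33 were below 0, against 5957 of the 11651 tested genes, and the lowest was -0.21. In the PPAR target list 30 of 33 were below 0. The gene that fell was Pdha1, a subunit of pyruvate dehydrogenase, from 741 ± 23.4 to 667 ± 17.6 FPKM (log2 -0.15, adjusted p = 0.0429). This call held when Sham 5 or CKD 1 was omitted; omitting each of the other 8 libraries ended it (adjusted p up to 0.116, without CKD 2). Testing every gene, scaling to the same total (0.0671), quantile normalization (0.127) and a fit with no variance trend (0.106) ended it too. Several factors downstream of PGC-1 gave no call. Tfam, which maintains mitochondrial DNA, was at 15.6 ± 1.27 FPKM in Sham and 14.6 ± 0.930 in CKD. Nrf1, a factor for nuclear genes of mitochondria, was at 4.93 ± 0.503 and 4.92 ± 0.439 FPKM. Gabpa, a related factor, was at 18.4 ± 1.08 and 17.2 ± 0.286 FPKM. Perm1, a muscle protein that acts with PGC-1 and ERR and is listed under the older symbol 2310042D19Rik, was at 144 ± 8.51 and 132 ± 8.67 FPKM. Ckmt2, the mitochondrial creatine kinase of muscle, was at 1770.4 ± 18.7 and 1754 ± 157 FPKM, and the sign of its log2 difference of -0.02 turned without CKD 1 (0.04).

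**Figure D5:**
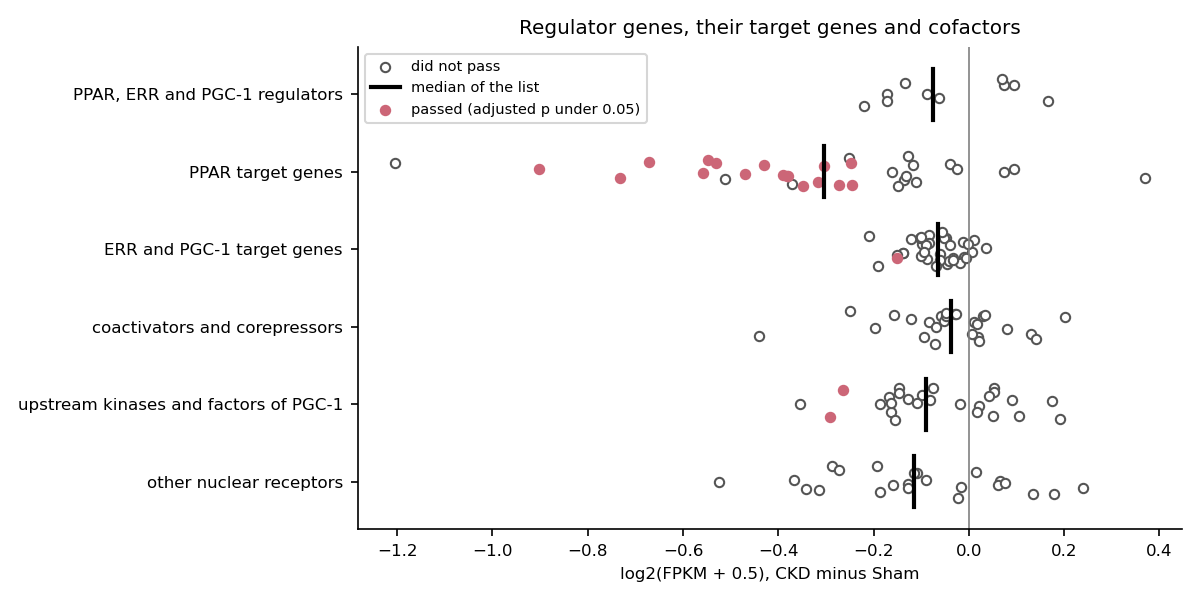
Log2(FPKM + 0.5) difference between CKD and Sham for each tested gene (points) of 6 lists; filled points passed the limma test at an adjusted p under 0.05, and the black bar is the list's median. Of the PPAR targets 17 of 33 passed, all lower in CKD, and of the regulator genes 0 of 10; points are spread vertically only for legibility.

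Cofactors and upstream regulators were read last. Of 26 coactivators and corepressors, such as the histone acetyltransferases and the NCoR complex, 0 passed, against 5.29% of all tested genes. An unadjusted p under 0.05 was seen for 4 of the 26, against 19.5% of all tested genes. These were Tbl1x (log2 -0.25, limma adjusted p = 0.0524), Ncoa3 (0.20, adjusted p = 0.103), Prox1 (-0.44, adjusted p = 0.147) and Ncor1 (-0.16, adjusted p = 0.223). Of 26 tested kinases and factors that act on PGC-1, 2 fell and 0 rose (7.69% lower, against 2.12% of all tested genes). Mapk14, the p38 alpha kinase that phosphorylates PGC-1 alpha, was at 28.5 ± 1.88 FPKM in Sham and fell to 23.2 ± 1.49 in CKD (log2 -0.29, adjusted p = 0.0212). Mef2a, a muscle transcription factor that acts on the Ppargc1a promoter, was at 44.6 ± 4.47 FPKM in Sham and fell to 36.9 ± 0.621 in CKD (log2 -0.26, adjusted p = 0.0419). In both cases all CKD mice lay below all Sham mice. Such a lack of overlap was seen for 3 of the 26 genes and for 7.28% of all tested genes. It is likely in genes named because they passed. The call of Mapk14 was lost without Sham 3, CKD 2, CKD 3 or CKD 5 (highest adjusted p = 0.0618), whereas that of Mef2a held only when the omitted library was Sham 5 (adjusted p up to 0.101 for the rest, and 0.0840 without both CKD 1 and Sham 1). Of 23 other tested nuclear receptors 0 passed, against 5.29% of all tested genes. An unadjusted p under 0.05 was seen for 2 of the 23, against 19.5% of all tested genes. These were Thrb, a thyroid hormone receptor (log2 -0.27, limma adjusted p = 0.0578), and Rxrg (-0.19, adjusted p = 0.230).

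Among other cell types, markers of fibroblasts, like those of macrophages above, moved between the groups, and the remaining lists gave few calls or none. Of 12 fibroblast markers 7 rose (58.3%, against 3.17% of all tested genes) and 0 fell. Their summed level was 673 to 758 FPKM in Sham and 822 to 999 in CKD. Of 13 endothelial markers 0 passed, against 5.29% of all tested genes. The summed endothelial level was 1758 to 2092 FPKM in Sham and 1585 to 2203 in CKD. Of 13 tested cardiomyocyte markers 1 rose (7.69%, against 3.17% of all tested genes), Csrp3 (log2 0.19, limma adjusted p = 0.0461). The summed cardiomyocyte level was 75926 to 90581 FPKM in Sham and 72626 to 90140 in CKD. In each group the lowest cardiomyocyte sum was that of the library standing apart, CKD 1 or Sham 1. Of 11 smooth muscle and pericyte markers 0 passed, against 5.29% of all tested genes. Their summed level was 1343 to 1653 FPKM in Sham and 1574 to 1779 in CKD. Most of that sum was Des, at 1195 ± 121 FPKM in Sham and 1405 ± 88.4 in CKD, so the sum mainly follows Des. The part of these cell types in the difference of Esrra and in the fall of the PPAR targets was not tested.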

How the data were processed

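Left ventricles of 10 mice were profiled by TruSeq mRNA libraries and single reads on a HiSeq 1000, per the labels' protocols. The authors deposited FPKM values, 1 per gene and library. The submitters' processing notes list Cuffdiff 2.1.1, Cufflinks 2.1.1 and STAR 2.4.0f1 beside the builds mm10 and hg19, without a role for any. The annotation, the treatment of shared reads and the use of strand are not given in the sources used here. Since FPKM is no count, count models were not used, and how many reads a value rests on is unknown. No pair of libraries was identical, and their log2 values correlated at 0.97 to 0.99.

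Columns were matched to mice by the number in the sample title, and mice to groups by the surgery label; mice are numbered within a group only to name them. Values were analysed as log2(FPKM + 0.5) without further scaling. A fold change on this scale is understated for low genes. CKD was compared with Sham across the 11651 genes whose mean reached 1 FPKM, using limma 3.58.1 in R 4.3.3 (eBayes, trend of variance on mean, two-sided, Benjamini-Hochberg over all tested genes, threshold 0.05). Family measures were compared by exact permutation and pairs of members by 100000 permutations (scipy 1.17.1). The code was tested on simulated data. Alternatives were other pseudocounts, filters, scalings and variance models, leaving out each library, and leaving out both CKD 1 and Sham 1.

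Genes were named by a rule: the 10 members, 13 fixed targets, up to 3 called members of each list and direction, and the 3 genes most like each member. A fixed target is not reported here. Adipoq, Cidea, Csrp3, Des, Lipe, Ncoa3, Ncor1, Plin4, Prox1, Tbl1x, Thrb, Rxrb, Rxrg and the targets with a motif match were named after their values were seen. The members and lists were chosen with earlier results of these data known. 2 list genes were matched by an older symbol. Positions and sequences are from RefSeq, GRCm38.p6, the assembly that mm10 denotes. Labels give no batch.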

Additional observations from a re-analysis of the deposited data

Results flagged for a closer look

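Each member's FPKM and each family measure was checked for a library far from the other 4 of its group, 42 groups of 5 in all, and 3 stood out; chance alone flags about 1 in 20 groups. Esrrg was at 16.5 FPKM in CKD 1, whereas CKD 2 to 5 lay between 12.5 and 13.5. The log2 ratio of Ppargc1a to Nrip1 was 1.73 in Sham 2, against 2.23 to 2.43 in the other Sham mice. The log2 ratio of Ppara to Ppard was 0.39 in CKD 2, whereas CKD 1, 3, 4 and 5 lay between 0.61 and 0.68. Without CKD 2 the ratio differed by -0.13 between the groups.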

How the results depend on the processing

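The count of regulator genes called was 0 higher in every alternative, and 0 lower except for 1 (Esrra) with libraries scaled to the same total, after quantile normalization and with library weights. It was 0 in both directions in each fit without 1 library. The number of PPAR targets lower stayed between 14 and 20 over all alternatives, and 1 was higher without CKD 4 (0 to 1 over the fits without 1 library). Over those fits, the number of all genes ran from 202 to 385 higher and from 131 to 290 lower; with library weights 400 were lower. ERR and PGC-1 targets lower numbered 0 without a filter, with scaling to the same total, after quantile normalization and without a variance trend, 2 with a mean of at least 5 FPKM, without both CKD 1 and Sham 1 and with the robust variance model, and 3 with library weights; they ran from 0 to 2 without 1 library. Coactivators and corepressors lower numbered 1 with a mean of at least 5 FPKM, with the same total, with library weights and without both CKD 1 and Sham 1, and 0 to 1 in each direction without 1 library. Upstream kinases and factors lower numbered 1 without a filter, without a variance trend and with the same total, 3 with library weights, and 0 to 2 without 1 library; 1 other nuclear receptor was lower after quantile normalization. The cause of these shifts was not tested. The sign turned for Nrf1 after quantile normalization (0.000336; -0.0431 to 0.0417 without 1 library), for Ppargc1a with library weights (-0.0081; -0.0169 to 0.164 without 1 library) and for Ckmt2 with library weights (0.0096) and without both CKD 1 and Sham 1 (0.0327; -0.0516 to 0.0364 without 1 library). The difference in the share of Esrrg ran from -0.0257 to 1.56 percentage points without 1 library. The share of Esrrb differed by 1.85 to 2.43 points and the Ppara to Ppard ratio by -0.21 to -0.13 without 1 library (adjusted p = 0.0873 throughout, with a smallest possible exact p of 0.0159), and by 2.48 points and -0.16 without both CKD 1 and Sham 1 (adjusted p = 0.157). Nrip1, Acot1, Angptl4 and Nrf1 have no value with a mean of at least 5 FPKM. No paired analysis was possible because the labels number no mice in common between the groups. With 5 mice a group, the 95% interval of Ppargc1a, -0.24 to 0.38, leaves room for differences larger than that of Esrra.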
